A study of Rattus norvegicus with 6 samples.

Results

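Long noncoding RNAs (lncRNAs) that were lower in the rat hippocampus on day 7 after fimbria-fornix (FF) transection are described here, for 5 of the 6716 probes of a 1-colour lncRNA microarray. They are lncRNA2011 (probe RB_p_rnol002011), lncRNA4946 (RB_p_rnol004946), lncRNA2276 (RB_p_rnol002276), lncRNA4452 (RB_p_rnol004452) and lncRNA4997 (RB_p_rnol004997). The first 3 are those that the study listed as decreased among the lncRNAs it took on to qPCR, and the other 2 were selected on their large lower array values after transection. All 5 were thus chosen by the same array difference that is described here, so that their direction and their size are a description and no test is given for them. The rule set no numerical limit. The array was hybridized with hippocampal RNA of 3 transected (denervated) and 3 normal Sprague–Dawley rat samples. The study describes the denervated and untreated tissue as paired and the rats as being of both sexes, but the sample labels give neither the pairs nor the sexes nor an age, and whether equal sample numbers mark the same rat is not given in the sources used here.

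The fimbria-fornix is the fibre bundle that joins the hippocampus with the septum, and cutting it removes the cholinergic input of the basal forebrain to the dentate gyrus, a region where neurons are still born in the adult. lncRNAs are transcripts of more than 200 nucleotides without a long open reading frame. Some act in the nucleus on the transcription of other genes, some act in the cytoplasm, for instance by binding microRNAs or proteins, and for most of them no function is known. A lncRNA is often restricted to few cell types, so in whole tissue fewer cells of a type and less RNA per cell cannot be told apart.

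The values are log2 normalized intensities as deposited, where a difference of 1 stands for a doubling of the signal. The medians of the 6 arrays lay between 10.17 and 10.19, and values ran from -1.44 to 15.99. A very dim value, under 2, was found for 87 to 321 probes per array, most often in normal 2 (321) and denervated 3 (294) and least often in denervated 2 (87). Normal 2 stood apart from its group, and denervated 3 was more like normal 2 than like the other denervated samples. These 2 are called below the samples that stood apart. Over all probes normal 2 correlated with denervated 3 at 0.87, but with normal 1 at 0.73 and with normal 3 at 0.76, where normal 1 and normal 3 correlated at 0.93. Denervated 3 correlated with denervated 1 at 0.84 and with denervated 2 at 0.76. Denervated 1 and 2 were not compared, so which denervated sample differs most from its group is not shown. Of the brain-enriched noncoding RNAs listed to check the tissue, 1 of 9 was matched to a probe by its rat accession, and this was Bc1, a dendritic RNA of neurons, which read 15.97 to 15.99 on every array and was thus at the top of the scale. Bc1 was lower in the denervated samples without overlap, with a log2 difference of -0.016. All normal samples read 15.9946, the brightest value of the data, so no size is read from this difference. H19, known from fetal tissue, read 13.29 to 14.36 and Mir122, a liver microRNA gene, 12.15 to 12.86, so the levels of these probes do not separate tissues. Of the microRNA genes listed for blood and myeloid cells, 3 of 4 were matched, and their summed level lay between 11.17 and 11.68 in the denervated and between 11.09 and 11.56 in the normal samples on the log2 scale. Of those listed for oligodendrocytes all 3 were matched, and the sums lay between 11.32 and 11.51 and between 11.16 and 11.56. Both sums overlapped between the groups. For the neuronal microRNA genes 6 of 10 were matched, and their sum was lower in every denervated sample (13.47 to 13.57) than in every normal sample (13.65 to 13.81). This sum was carried by Mir132, a microRNA gene induced by neuronal activity, which read 13.31 to 13.47 in the denervated and 13.49 to 13.70 in the normal samples and was the only 1 of these 6 without overlap. Of the other members Mir9-2, Mir137 and Mir124-3 had a higher mean in the denervated samples, with log2 differences of 3.10, 1.06 and 0.19, and Mir128-1 and Mir9-3 a lower one, with -0.09 and -0.45, all with overlap. The RNA integrity scores listed by the study were higher in each treated than in each normal sample. The part of neuronal content, for which Mir132 alone of these 6 had no overlap, and of RNA integrity in the differences below was not tested.

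All 5 lncRNAs are rat sequences matched to mouse transcripts, the kind of probe that makes up 50.0% of the array and 50.6% of the probes that were lower without overlap. The array's annotation gives each of them a rat interval. The genome build is not named in the sources used here and was not worked out from the contig names of the annotation. lncRNA2011 matches the mouse transcript NR_045507 and is placed on the forward strand of chromosome 17, at 50271222 to 50305717. lncRNA4946 matches NR_028126 and is placed on the forward strand of chromosome 5, at 21349076 to 21350818. lncRNA2276 matches NR_046002 and is placed on the forward strand of chromosome 6, at 87005494 to 87007418. lncRNA4452 matches NR_028091 and is placed on the forward strand of chromosome 2, at 73859184 to 73859240. lncRNA4997 matches NR_045799 and is placed on the reverse strand of chromosome 10, at 8523586 to 8544863. The intervals are very unequal, from 57 bp for lncRNA4452 to 34496 bp for lncRNA2011, where the median of the 3356 mouse matches is 5368 bp. An interval of 57 bp or less was found for 2.35% of these matches, and one under 200 bp for 19.1%. The interval of lncRNA4452 is thus shorter than the 200 nucleotides that a lncRNA exceeds by definition. Whether it covers the whole transcript is not known here. None of the 5 mouse accessions is in the RefSeq table of rat genes, and the array's own gene field is empty for them, so exons, introns and a function are not stated here and the lncRNAs are ordered by brightness.

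lncRNA2011 was the brightest of the 5. Its log2 intensity was 8.64, 8.53 and 9.42 in denervated 1, 2 and 3, and 9.53, 9.97 and 9.80 in normal 1, 2 and 3. The groups did not overlap, but denervated 3 came within 0.12 of normal 1, while denervated 1 and 2 lay well below. The denervated mean was 8.86 ± 0.48 (SD, n = 3) against a normal mean of 9.77 ± 0.22 (SD, n = 3), a log2 difference of -0.90 with a standard error of 0.31, or a 1.87-fold lower signal after transection. Without denervated 3 the difference was -1.18. Within each array lncRNA2011 stood at the 19.5th to 34.1th percentile in the denervated and at the 36.4th to 45.9th percentile in the normal samples.

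lncRNA4946 was the most even of the 5. It read 8.32, 8.55 and 8.12 in denervated 1, 2 and 3, and 9.25, 9.32 and 9.42 in normal 1, 2 and 3. All samples of a group lay close together, and the highest denervated sample was 0.69 below the lowest normal one. The denervated mean was 8.33 ± 0.22 (SD, n = 3) against a normal mean of 9.33 ± 0.09 (SD, n = 3), a log2 difference of -1.0003 with a standard error of 0.14, or a 2.00-fold lower signal. Its SD within a group, pooled over both groups, was 0.17, and 96.7% of all probes had a larger one. Leaving out 1 sample moved the difference only between -1.11 and -0.89. By the width of the gap between the groups it was 6th of the 170 probes that were lower without overlap, and 3rd of the 156 among them with all values at 2 or above.

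lncRNA2276 read 7.37, 8.56 and 7.83 in denervated 1, 2 and 3, and 8.79, 8.95 and 9.48 in normal 1, 2 and 3. The groups did not overlap, with denervated 2 being 0.22 below normal 1. The denervated mean was 7.92 ± 0.60 (SD, n = 3) against a normal mean of 9.07 ± 0.36 (SD, n = 3), a log2 difference of -1.15 with a standard error of 0.40, or a 2.22-fold lower signal. Here denervated 2 was the sample nearest to the normal ones, and without it the difference was -1.47, while without denervated 1 it was -0.87.

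lncRNA4452 and lncRNA4997 had larger differences at much lower levels. lncRNA4452 read 6.45, 3.45 and 5.87 in denervated 1, 2 and 3, and 7.54, 7.91 and 7.23 in normal 1, 2 and 3. The normal samples lay close together, and denervated 2 stood far below all others. The denervated mean was 5.26 ± 1.59 (SD, n = 3) against a normal mean of 7.56 ± 0.34 (SD, n = 3), a log2 difference of -2.30 with a standard error of 0.94, or a 4.93-fold lower signal. Without denervated 2 the difference was -1.40, or 2.63-fold. The gap between the groups was 0.78, the widest of the 5.

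lncRNA4997 read 4.81, 2.68 and 5.78 in denervated 1, 2 and 3, and 6.29, 7.49 and 6.66 in normal 1, 2 and 3. Denervated 2 was again the lowest sample, and normal 2 was the highest. The denervated mean was 4.42 ± 1.58 (SD, n = 3) against a normal mean of 6.81 ± 0.62 (SD, n = 3), a log2 difference of -2.39 with a standard error of 0.98, or a 5.24-fold lower signal. Without denervated 2 it was -1.52, or 2.87-fold. The lack of overlap depends on the scaling of the arrays for this lncRNA. By its rank within the array denervated 3 stood at the 7.07th percentile and normal 1 at the 7.04th, and after quantile normalization they read 6.24 and 6.22, so that the groups then overlapped by a narrow margin.

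**Figure D1:**
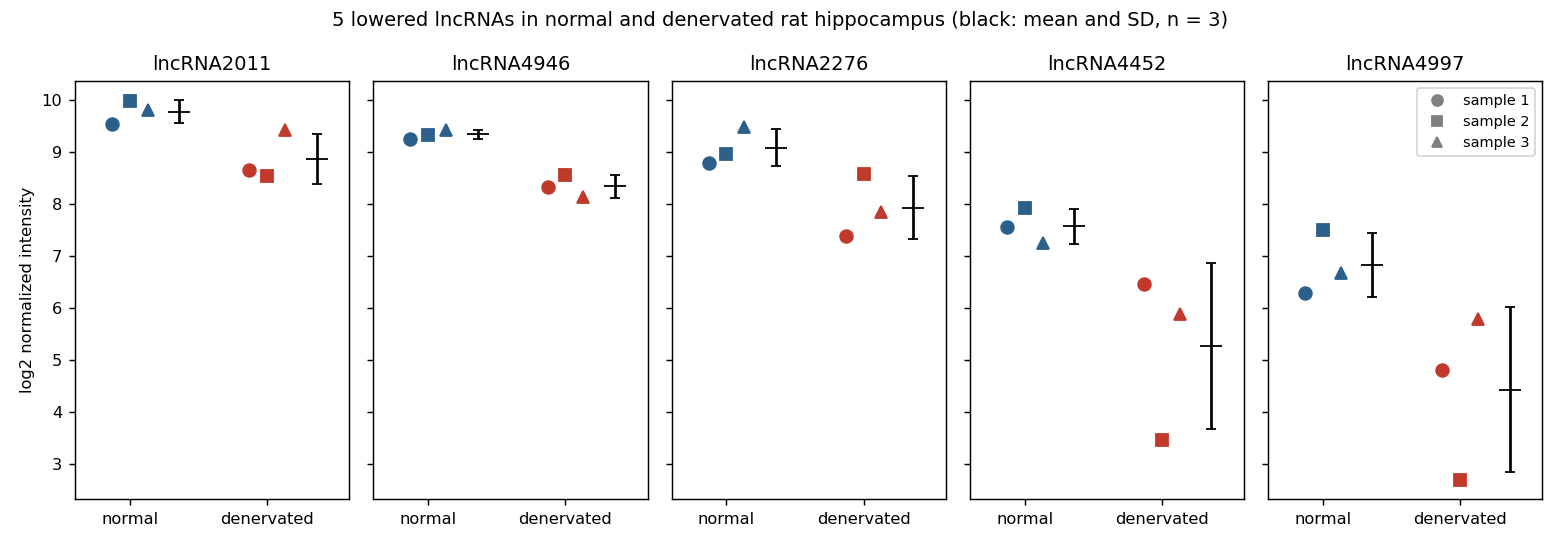
The vertical axis gives the log2 normalized intensity of the 5 lncRNAs in the 3 normal (blue) and 3 denervated (red) samples, with a circle, square and triangle for samples 1, 2 and 3 and the mean and SD of each group in black. The groups do not overlap in any of the 5, and denervated 2 lies far below the others for lncRNA4452 (3.45) and lncRNA4997 (2.68).

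None of the 30 values of these lncRNAs lay under 2, but 3 lay under 5, all of them denervated values of lncRNA4452 and lncRNA4997. With 5 as the floor of the values, lncRNA4452 differed by -1.78 and lncRNA4997 by -1.55 (log2), while the other 3 did not change. Their order by size of the difference was then reversed, and both still exceeded the other 3. Without denervated 2, however, lncRNA4452 (-1.40) no longer exceeded lncRNA2276 (-1.47), and lncRNA4997 was at -1.52. With group medians in place of means the differences were -1.67 and -1.85, against -1.16 for lncRNA2011, -1.01 for lncRNA4946 and -1.12 for lncRNA2276. Differences between these 5 differences were not tested, and those of lncRNA2011, lncRNA4946 and lncRNA2276 lay within 1 standard error of lncRNA2276 of each other.

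All 5 lncRNAs were below the median of the array in all 6 samples. By mean level over the samples they stood at the 32.5th (lncRNA2011), 24.9th (lncRNA4946), 20.1th (lncRNA2276), 7.95th (lncRNA4452) and 6.10th (lncRNA4997) percentile. The probes that were lower without overlap had a median percentile of 48.6, so they were spread over the whole range of brightness. In the dimmest 10% of probes, which hold lncRNA4452 and lncRNA4997, 20.7% had a log2 difference below -1 and 45.2% had one above 1. In the third 10%, which hold lncRNA4946 and lncRNA2276, these shares were 3.28% and 5.51%, and in the fourth, which hold lncRNA2011, 1.49% and 3.27%. The pooled SD within a group had a median of 2.81 in the dimmest 10%, against 1.15 for lncRNA4452 and 1.20 for lncRNA4997. It was 0.63 in the third 10%, against 0.17 for lncRNA4946 and 0.50 for lncRNA2276, and 0.49 in the fourth, against 0.38 for lncRNA2011. Groups without overlap favour probes with a small spread, and the 170 lower probes without overlap had a median pooled SD of 0.27 against 0.55 for all probes, so nothing particular to the 5 lncRNAs is read from their spread.

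**Figure D2:**
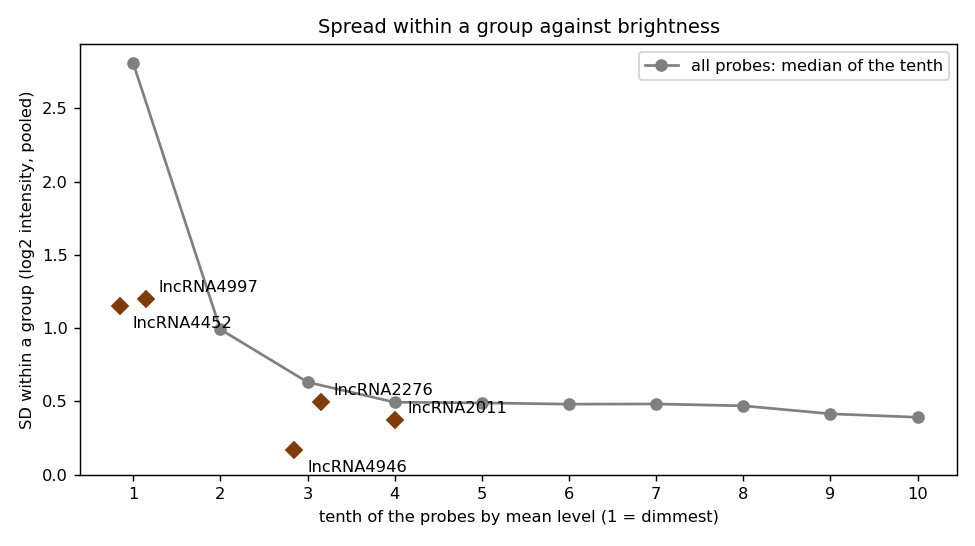
The horizontal axis gives the probes in 10 equal parts by mean level, the dimmest first, and the vertical axis the pooled SD within a group on the log2 scale. The grey line joins the medians of all probes, from 2.81 to 0.39, and the 5 lncRNAs (brown) lie below it, as a lack of overlap favours (the 170 lower probes without overlap have a median of 0.27).

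Over all 6716 probes 170 (2.53%) were lower in every denervated than in every normal sample, and 226 were higher without overlap. All 5 lncRNAs are among the 170. Of the 270 probes with a log2 difference below -1 only 37 had no overlap, but the 5 were chosen on this same contrast. Those 270 probes (4.02%) include 4 of the 5, with lncRNA4946 being the last of the 270 and lncRNA2011 at place 330. With a log2 difference of means below -1 and an unadjusted limma p below 0.05, 20 probes (0.298%) were lower, and 4 of the 5 were among them, all except lncRNA2011. The methods of the study give limits of the same size and name limma too. They take the p from a rank product test, however, which was not run here, and the abstract gives a larger fold limit. The fold measure of the study differed too. The ratios it listed for lncRNA2011, lncRNA4946 and lncRNA2276 correspond to differences of group medians, which were -1.16, -1.01 and -1.12, and not of means. For lncRNA2011 the difference was thus past -1 by medians, as the study listed it, but not by means (-0.90). This contrast chose the lncRNAs, so nothing follows from the counts. After Benjamini-Hochberg adjustment in limma 0 probes (0%) were lower at an adjusted p under 0.05, where 34 had an unadjusted p under 0.05. A test of each probe on its own, without limma's sharing of the spread between probes, gave 0 too, with 59 unadjusted. The median difference of the 5 was -1.15, where that of the 170 was -0.56 and that of all probes was 0.02.

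Among the 170 probes ordered by size of the difference, lncRNA4997 was at place 14 and lncRNA4452 at place 15. Of the 13 with a larger difference, 12 had at least 1 value under 2. The exception was RB_p_rnol004264, matched to the mouse transcript NR_026990, which read 6.75, 7.87 and 2.68 in the denervated and 8.52, 8.20 and 8.91 in the normal samples. It rested on denervated 3 in the way that lncRNA4452 and lncRNA4997 rested on denervated 2. The next probe after lncRNA4452 was RB_p_rnol002401, with a log2 difference of -1.58, so a step follows lncRNA4452 in the deposited values. The size of this step depends on denervated 2, without which lncRNA4452 was at -1.40 and lncRNA4997 at -1.52. With 5 as the floor, lncRNA4997 (-1.55) fell short of RB_p_rnol002401, which has no value under 5. lncRNA2276 was at place 26, between 2 probes with differences of -1.16 and -1.15, lncRNA4946 at place 37 and lncRNA2011 at place 44. The probe after lncRNA2011 was that of Mir29b1, a microRNA gene of the miR-29 family, with 7.39, 7.51 and 7.97 in the denervated and 8.48, 8.46 and 8.62 in the normal samples, and with a log2 difference of -0.90 too.

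A second probe with an annotated interval lay near 2 of the 5 lncRNAs. RB_p_rnol006011, matched to the mouse transcript NR_046003, covers 87005479 to 87007418 of the forward strand of chromosome 6 and shares all 1925 bp of the interval of lncRNA2276, from which it differs by 15 bp at its start. It read 8.52, 8.50 and 9.28 in denervated 1, 2 and 3, and 8.69, 9.45 and 9.55 in normal 1, 2 and 3. The groups overlapped, since denervated 3 lay above normal 1. The denervated mean was 8.77 ± 0.44 (SD, n = 3) against a normal mean of 9.23 ± 0.47 (SD, n = 3), a log2 difference of -0.46 with a standard error of 0.37. Both probes of this interval were thus lower in mean after transection, but that of lncRNA2276 by -1.15 and the other by -0.46, and they placed the samples in a different order. The value of lncRNA2276 minus that of the other probe was -1.15, 0.06 and -1.45 in denervated 1, 2 and 3, and 0.09, -0.50 and -0.07 in normal 1, 2 and 3. The offset between different probes is arbitrary, so these values show only that it was not constant over the samples. Whether they detect the same transcripts is not given in the sources used here.

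**Figure D3:**
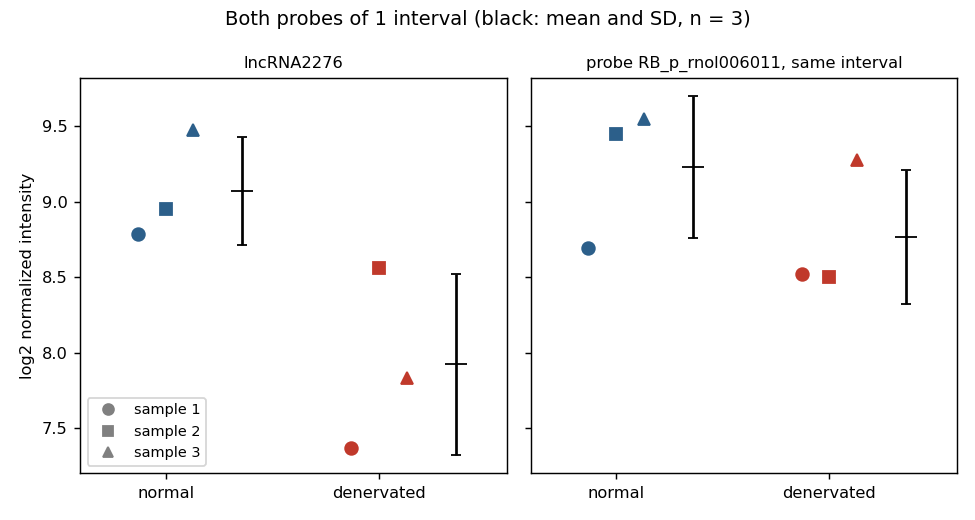
The vertical axis gives the log2 normalized intensity of the probe of lncRNA2276 (left) and of RB_p_rnol006011 (right), which share an annotated interval, in normal (blue) and denervated (red) samples, with mean and SD in black. The groups are apart on the left and overlap on the right, where denervated 3 (9.28) lies above normal 1 (8.69).

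The second of these probes, RB_p_rnol000463, is matched to NR_046131 and lies 6267 bp from the interval of lncRNA2011, at 50244136 to 50264955 of the reverse strand of chromosome 17. It read 8.54, 8.55 and 7.32 in the denervated and 8.27, -0.33 and 8.36 in the normal samples. The groups overlapped, and the log2 difference was 2.70 with a standard error of 2.91. This difference rested on normal 2, whose value was in the very dim range, so nothing about lncRNA2011 is read from this probe. Among the probes with an annotated interval, none lay within 50 kb of lncRNA4946, lncRNA4452 or lncRNA4997. Probes without an interval could not be found in this way. The RefSeq rat probes named here have none, and this kind makes up 25.0% of the array.

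Within the groups the 5 lncRNAs did not all vary in the same way. Over the 6 samples of the same arrays, deviations from the group means correlated at 0.86 between lncRNA4452 and lncRNA4997, 0.83 between lncRNA2011 and lncRNA4997, 0.43 between lncRNA2011 and lncRNA4452 and 0.69 between lncRNA4946 and lncRNA2276, given as a description. The first 3 against the last 2 lncRNAs gave values from -0.89 to -0.11, so the samples were ordered differently in these sets. The log2 value of denervated 2 minus its group mean was -1.81 for lncRNA4452, -1.74 for lncRNA4997 and -0.33 for lncRNA2011, but 0.64 for lncRNA2276 and 0.22 for lncRNA4946. That of denervated 3 was 0.55 for lncRNA2011, 1.35 for lncRNA4997 and -0.21 for lncRNA4946. In the normal group, normal 2 was the highest sample for lncRNA2011, lncRNA4452 and lncRNA4997, and normal 3 for lncRNA4946 and lncRNA2276. For lncRNA2011 and lncRNA4997 the highest denervated sample was denervated 3 and the highest normal sample normal 2, the samples that stood apart on the whole array. The same order was found for 32.3% of all probes, and normal 2 was the highest normal sample for 51.2%. Without both of these samples the log2 differences were -1.08 for lncRNA2011, -0.90 for lncRNA4946, -1.16 for lncRNA2276, -2.43 for lncRNA4452 and -2.73 for lncRNA4997, so the differences were about as large without them.

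**Figure D4:**
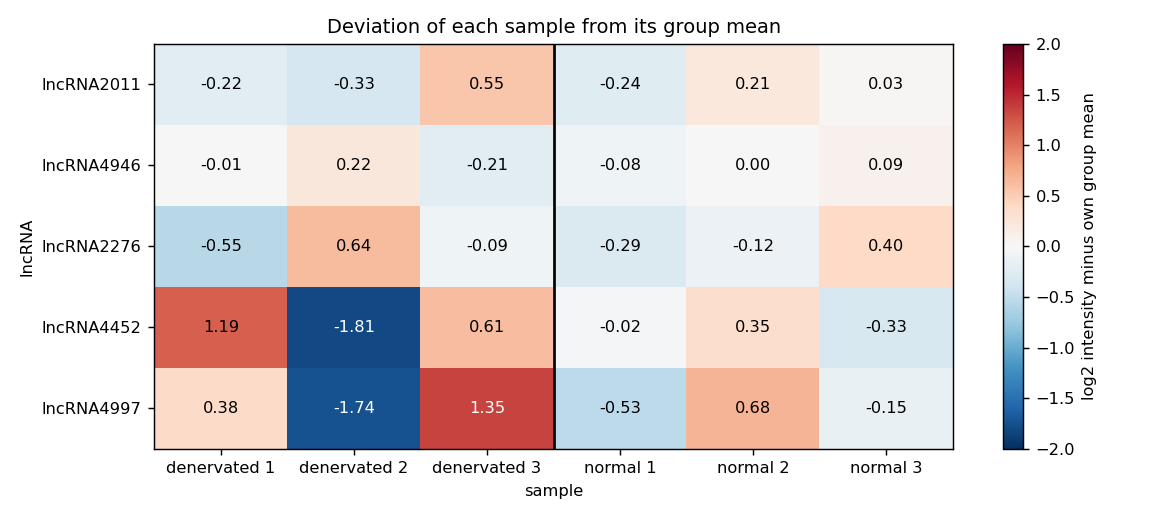
Each cell gives the log2 intensity of a lncRNA (row) in a sample (column) minus the mean of the sample's own group, red above and blue below the mean. Denervated 2 is low for lncRNA4452 (-1.81) and lncRNA4997 (-1.74) and high for lncRNA2276 (0.64).

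The probes with the most similar pattern were sought by Pearson correlation over the 6 samples, among probes with all values at 5 or above. These correlations share the same arrays and are the highest over 5965 probes, so they are only a description. For lncRNA2011 they were RB_p_rnol001423, with r = 0.99 and a log2 difference of -0.46, and RB_p_rnol003850, with r = 0.99 and -0.11. For lncRNA4946 they were RB_p_rnol003785, with r = 0.98 and -0.63, and RB_p_rnol001537, with r = 0.98 and -0.84. For lncRNA2276 they were RB_p_rnol001518, with r = 0.97 and -0.78, and RB_p_rnol004801, with r = 0.96 and -0.64. For lncRNA4452 they were RB_p_rnol000699, with r = 0.98 and -0.40, and RB_p_rnol005755, with r = 0.98 and -0.44. For lncRNA4997 they were RB_p_rnol005657, with r = 0.99 and -0.37, and RB_p_rnol002434, with r = 0.99 and -1.15. All 10 had smaller differences than the lncRNA they resembled, and 9 of them had a mean level above 10. The 5 lncRNAs were chosen for their differences, a correlation ignores size, and the limit of 5 favours bright probes. Neither count is therefore read as a result. No probe was among the most similar of more than 1 lncRNA.

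**Figure D5:**
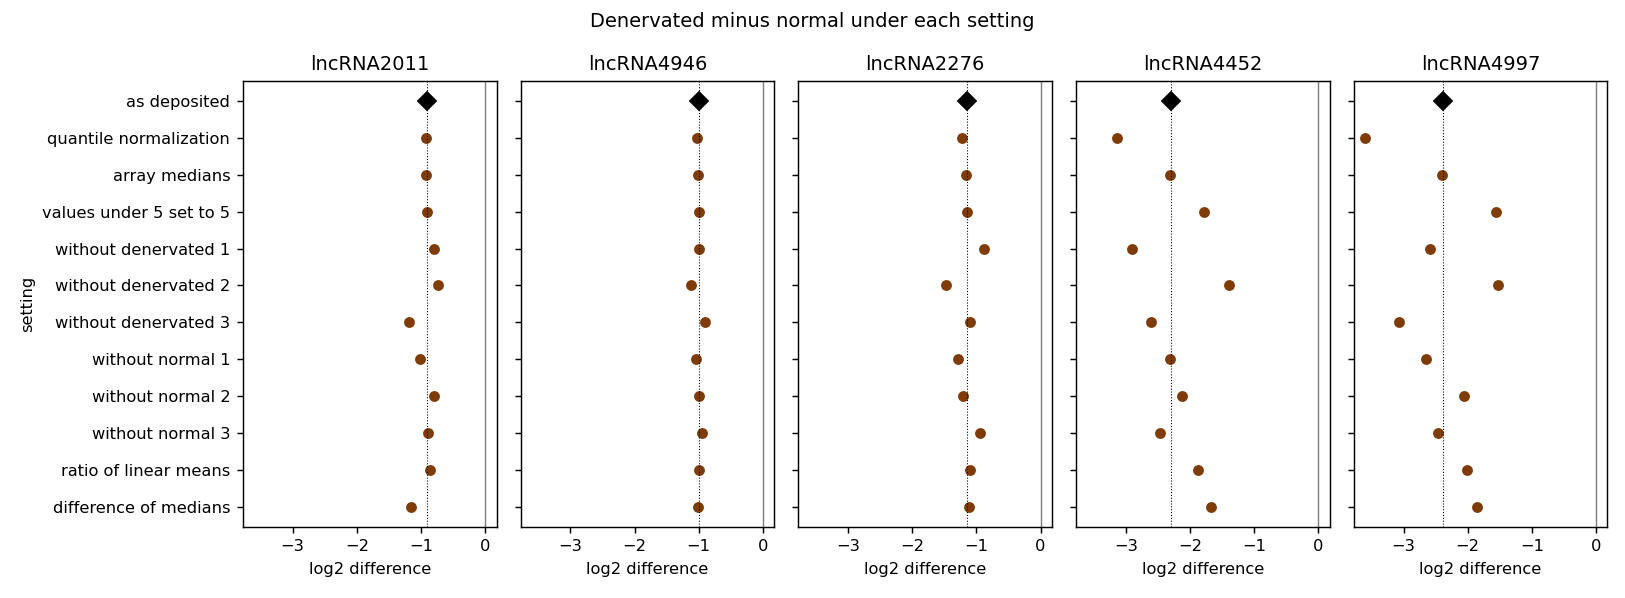
The horizontal axis gives the log2 difference, denervated minus normal, of each of the 5 lncRNAs under the settings on the vertical axis, with the values as deposited as a black diamond. All points lie below 0, which only quantile normalization and array medians could have changed, since the groups did not overlap as deposited. The points spread least for lncRNA4946 (-1.11 to -0.89) and most for lncRNA4997 (-3.60 to -1.52).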

How the data were processed

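Total RNA of 3 denervated and 3 normal hippocampi was labelled with Cy5 and hybridized to the RiboArray lncDETECT rat array. The authors scaled the arrays by the 50% method, took the median of repeated spots and deposited log2 normalized intensity. Background correction is not given and the genome build is not named in the sources used here. A second deposited table holds the same log2 values (largest difference 5e-09). The lists of the authors' own comparison hold log2 ratios, ratios and p-values and were not used. 1 probe is left out.

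The deposited values were not rescaled. The fit over all 6716 probes used limma (version 3.58.1, lmFit and eBayes) under R (version 4.3.3) with Benjamini-Hochberg adjustment, without a block and without a filter on dim probes. A run on simulated data with independent noise checked only that added shifts were recovered in the median. It says nothing about error rates in these arrays. Precision is limited by 3 arrays per group. The p-values set each difference against the spread between these samples, which limma shares in part over the probes. If the tissue is paired, as the study describes, differences between rats count in that spread. The lncRNAs, the marker lists and the rules were chosen with earlier results of these data known. Besides the 5 lncRNAs the text names probes within 50 kb, the 2 most similar probes of each and their neighbours in the order of differences. No rank product test was run, although the study used one. RB_p_rnol004264 was chosen after its values were seen. Rat accessions were named through the GRCr8 RefSeq table, which named 389 probes. Of the microRNA genes listed for muscle and liver 3 of 4 were matched (summed log2 level 12.41 to 12.81 in the denervated and 12.63 to 12.97 in the normal samples), of the glial or immune ones 0 of 2, and of Malat1 and Neat1 0 of 2. Alternatives were quantile normalization, centring on medians, a floor at 5, the upper 50% of probes, an intensity trend, the Student t test, the sample number as a block, other summaries and leaving out samples. Figures were drawn with matplotlib 3.10.9.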

Additional observations from a re-analysis of the deposited data

How the results depend on the processing

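All 5 differences kept their direction under every alternative run. Since the groups did not overlap as deposited, medians, linear means, a floor, a block or leaving out samples could not reverse a direction. Only quantile normalization, centring on medians and ranks within the array could have done so. Within the array, as a difference of mean percentiles, the 5 differences were -16.6 points for lncRNA2011, -15.2 for lncRNA4946, -13.9 for lncRNA2276, -6.87 for lncRNA4452 and -4.83 for lncRNA4997, on another scale than log2. After quantile normalization that of lncRNA4997 was -3.60, and that of lncRNA4452 was -3.14. Without 1 sample the differences ranged from -1.18 to -0.74 (lncRNA2011), -1.11 to -0.89 (lncRNA4946), -1.47 to -0.87 (lncRNA2276), -2.90 to -1.40 (lncRNA4452) and -3.07 to -1.52 (lncRNA4997). Groups that lie apart stay apart when samples are left out, so only rescaled values could show an overlap. The lack of overlap held for all 5 with centring on medians. After quantile normalization and by percentile it held for all except lncRNA4997.

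Of the 5, the 4 past both limits (log2 difference below -1, unadjusted limma p below 0.05) became 0 with an intensity trend, 2 with the Student t test, 0 to 4 without 1 sample (1 without denervated 1, 1 without normal 2 and 0 without normal 3), and 2 without both samples that stood apart, an alternative chosen after seeing the data. None of the 5 is in the upper 50% of probes. Over all probes the 20 lower ones became 34 after quantile normalization (with 70 higher, as before, or 67.3% higher against 77.8%), 8 in the upper 50% of probes, 9 with the Student t test, 93 without both samples that stood apart and 6 to 90 without 1 sample (90 without denervated 2, 79 without denervated 3, 73 without normal 2, 6 without normal 3). The 170 lower without overlap became 82 in the upper 50% of probes, which holds fewer probes, 1264 without both samples that stood apart and 274 to 762 without 1 sample, where fewer samples need to be apart. The 0 lower at an adjusted p under 0.05 in limma stayed 0, except for 1 without denervated 3, so they ranged from 0 to 1. For all other changes the cause was not tested.

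With the sample number as a replicate block the differences of the 5 are the same by construction, 0 of the 5 and 11 of all probes were lower past both limits and 0 at an adjusted p under 0.05 in limma, where 11 had an unadjusted p below 0.05. Deviations of samples of equal number correlated at -0.05, -0.52 and -0.35. These values cannot tell whether equal numbers mark pairs, since normal 2 and denervated 3 were alike over the whole array. The numbers were not taken as pairs because no source used here says that they mark the same rat. How far a signal lay above background is not known, so for the dim lncRNA4452 and lncRNA4997 the sizes are least certain.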
